A study of Mus musculus with 12 samples.

Results

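Bladders of 2 reporter mouse lines, SMGA/EGFP and SMAA/EYFP, were set directly against each other: 3 arrays of the first line against 3 arrays of the second, which are 6 of the 12 arrays of the study. Members were chosen by the line given in the labels, and no measured value entered the choice. The study asked what a smooth muscle reporter transgene does to gene expression in the newborn bladder. Whole bladders were taken on postnatal day 1 from FVB/N mice, all male per the labels, and each array held RNA of 1 sample that was not pooled. In SMGA/EGFP the smooth muscle gamma actin (Actg2) promoter drives a green fluorescent protein. In SMAA/EYFP the smooth muscle alpha actin (Acta2) promoter drives a yellow fluorescent protein. The remaining 6 arrays held bladders of wild-type mice of the same strain, age and labelled sex, from matings to control males. Pups of both reporter lines came from FVB/N mothers and transgenic fathers, so line, father and litter cannot be told apart. The labels do not say whether pups of a group shared a litter, nor which transgene insertion each line carries, so p-values measure the spread between these samples.

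Each line lies in its own run of database record numbers. The first 6 records hold the 3 SMGA/EGFP arrays and wild type 1 to 3, and the last 6 hold the 3 SMAA/EYFP arrays and wild type 4 to 6. The labels do not call these runs batches. Between the lines, run and genotype cannot be told apart from the 6 arrays alone, so the wild-type values of both runs are given beside the main results.

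The bladder wall is built from the urothelium, which lines the lumen, a lamina propria of fibroblasts and vessels, and the detrusor, layers of smooth muscle that contract to empty the organ. Nerves and ganglia reach the muscle from outside, and part of the outer surface is covered by mesothelium, a single cell layer that secretes lubricating glycoproteins. Smooth muscle alpha and gamma actin are among the most abundant proteins of smooth muscle, and the reporter lines mark the cells that use their promoters.

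Levels are log2(intensity + 16), quantile-normalized between arrays. Across the 6 arrays, the correlation of levels was 0.956 to 0.982 within a line and 0.948 to 0.981 between the lines, over probe sets that are not independent replicates. SMGA/EGFP 1 stood apart, at -56.9 on a first principal component with 39% of the variance, while the other SMGA/EGFP arrays lay at -9.63 and 6.26 and the SMAA/EYFP arrays at 14.2 to 28.3. The log2 ratio of 3-prime over 5-prime control probe sets, a sign of RNA quality, differed by 0.10 for Gapdh and 0.00 for Actb (p = 0.20 and 1.00, two-sided exact permutation tests). With 3 arrays against 3 this test cannot go below 0.10. The 6 compared arrays had a male pattern of Xist and Y-linked genes. Wild type 4 did not, so the fits between the lines, with the record run as a term or not, were repeated without it. No such repeat is given for SMAA/EYFP against second-run wild type or for wild type between the runs.

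No gene of the smooth muscle contractile apparatus passed between the lines. Acta2 measured 15.94, 15.97 and 15.88 in SMGA/EGFP and 15.89, 15.84 and 16.05 in SMAA/EYFP. Actg2 measured 15.84, 15.85 and 15.80 in SMGA/EGFP and 15.83, 15.80 and 15.84 in SMAA/EYFP. The groups overlapped in both genes, with differences of 0.00 for Acta2 and 0.01 for Actg2 (p = 1.00 and 0.60, two-sided exact permutation tests). These probe sets ranked 7 and 29 by mean level on the array, near the top of the range, where differences are compressed. The dimmer Acta2 probe sets were at 13.59 ± 0.82 (SD, n = 3) in SMGA/EGFP against 13.81 ± 0.09 in SMAA/EYFP (exact p = 0.70), and at 9.77 ± 0.67 against 9.88 ± 0.22 (exact p = 0.90). Of 31 genes of the contractile apparatus, 18 were higher and 13 lower in SMGA/EGFP, 0 passed, 0 had an unadjusted p under 0.05, and the differences ran from -0.35 to 0.13. With arrays centred on their median, all 31 were lower, with a median of -0.12, as for all probe sets tested, and a fit with the record run as a term had 29 higher, with a median of 0.12. Vcl (vinculin, of adhesion plaques) was at 0.11 ± 0.07 (SE) and Ldb3 (of muscle Z-discs) at -0.35 ± 0.28.

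Across all genes, 18 of 22518 probe sets (0.0799%) passed a limma test at an adjusted p under 0.05, 2 higher (0.00888%) and 16 lower (0.0711%) in SMGA/EGFP. With arrays centred on their median in place of quantile normalization, 18 passed, of which 0 were higher and 18 lower and 16 were among the first 18; that scaling moves the median of all probe sets tested from -0.02 to -0.12. With only the 6 arrays of the lines in the fit, 25 passed, 10 higher and 15 lower, and 13 of these were among the first 18. The 18 probe sets stood for 16 genes, Gpm6a with 2 probe sets, and 1 probe set with no listed gene (-3.03 ± 0.40, SE). An unadjusted p under 0.05 was reached by 2097 probe sets (9.31%), 943 higher (4.19%) and 1154 lower (5.12%). The median standard error was 0.19, and the 5th and 95th percentiles of the differences were -0.46 and 0.50. Differences over 1 were found for 216 probe sets and under -1 for 70. The 3 arrays of each line did not overlap in 3273 probe sets (14.5%), of which 1814 were lower (8.06%) and 1459 higher (6.48%) in SMGA/EGFP. The count of 18 was 4 without SMAA/EYFP 2, 9 without SMGA/EGFP 2, and 12 to 22 without each other array in turn.

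**Figure D1:**
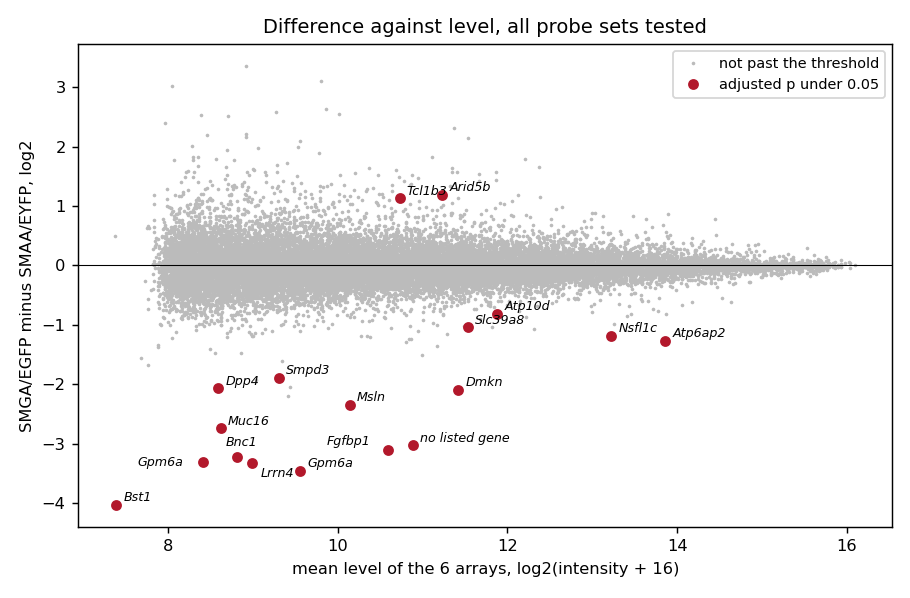
Difference between the lines (SMGA/EGFP minus SMAA/EYFP, log2) against the mean level of the 6 arrays, 1 point per probe set tested. Red points are the 18 probe sets past the adjusted threshold; 16 lie below 0, down to -4.03 for Bst1, and 2 lie above 0.

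Mesothelial genes were among those lower in SMGA/EGFP. Of 28 gene lists, this one held 5 passing genes, the fibroblast list 1 and the others 0. The lists were chosen with earlier results of these data known, so counts and shares by list are a description only. Of the mesothelium list's 13 tested genes, 11 were lower and 2 higher than in SMAA/EYFP, 5 passed, all lower (against 0.0711% of all probe sets), and 7 did not overlap between the lines, again lower (against 8.06%). The median difference was -0.47, against -0.02 for all probe sets tested. With the filter at the 75th percentile of levels, which kept 6 of the genes, it was -0.10, with 4 lower and 2 higher. The 5 that passed were Gpm6a, Lrrn4, Bnc1, Muc16 and Msln. In bulk RNA, fewer cells of a type and less RNA per cell cannot be told apart.

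Gpm6a, a membrane glycoprotein of neurons that mesothelium also makes, measured 7.84, 7.52 and 8.11 in SMGA/EGFP and 11.03, 11.94 and 10.90 in SMAA/EYFP. Every SMGA/EGFP array lay below every other array of the study, wild type included (9.66 to 11.30). The difference was -3.46 ± 0.39 (SE, n = 3 and 3; limma adjusted p = 0.002), 11.0-fold lower. Its second tested probe set was at -3.31 ± 0.44 (adjusted p = 0.00638).

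Lrrn4, a leucine-rich repeat membrane protein, measured 7.57, 6.76 and 7.67 in SMGA/EGFP and 10.69, 11.27 and 9.99 in SMAA/EYFP, 9.99-fold lower (-3.32 ± 0.42, limma adjusted p = 0.00502). Bnc1, basonuclin, a zinc finger protein of epithelia, measured 6.95, 7.30 and 7.35 against 10.38, 10.88 and 9.99, 9.31-fold lower (-3.22 ± 0.41, adjusted p = 0.00502). In both genes the lines were far from overlapping, and every wild-type array lay above SMGA/EGFP, at 9.20 to 10.82 for Lrrn4 and 8.70 to 10.29 for Bnc1. Muc16, the mucin known as CA125, measured 6.90, 7.73 and 7.13 against 10.05, 10.37 and 9.55, 6.66-fold lower (-2.74 ± 0.35, adjusted p = 0.00502). Msln, mesothelin, the surface protein that binds that mucin, measured 8.34, 9.22 and 9.33 against 11.24, 11.71 and 11.00, 5.10-fold lower (-2.35 ± 0.35, adjusted p = 0.0178). Here too the lowest SMAA/EYFP array was above the highest SMGA/EGFP array. Without SMAA/EYFP 2, Lrrn4, Bnc1 and Muc16 were at -3.00, -2.98 and -2.53 and each had an adjusted p of 0.052. Msln did not pass without SMGA/EGFP 1 or 2 or SMAA/EYFP 1 or 2 (adjusted p = 0.0551 to 0.146).

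The other mesothelium genes differed less. Upk3b, a uroplakin made by urothelium and mesothelium, measured 13.79, 13.95 and 13.89 against 14.54, 14.56 and 14.34, without overlap (-0.61 ± 0.12, limma adjusted p = 0.118, and 0.0341 without wild type 4). Wt1, the Wilms tumour transcription factor, was at -0.38 ± 0.33 and Nkain4 at -0.47 ± 0.18. The 2 genes above 0 were Aldh1a2, which makes retinoic acid, at 0.14 and Efemp1, an extracellular matrix protein, at 0.01. Of the list, 3 genes also stand on the urothelium list (Upk3b, Upk1b and Krt19). Over the other 11 genes with a probe set, the summed intensity was 17700 to 20900 in SMGA/EGFP and 24700 to 35700 in SMAA/EYFP, against 20900 to 25000 in first-run and 24100 to 28500 in second-run wild type. Rspo1 was below the filter on level. No probe set carried C3 as its only symbol, so C3 was not read in the list.

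Outside the mesothelium list, Fgfbp1 and Bst1 were lower by more than 8-fold. Fgfbp1, a carrier that releases fibroblast growth factors from the matrix, measured 8.53, 9.01 and 9.56 in SMGA/EGFP and 12.17, 12.36 and 11.92 in SMAA/EYFP. The highest SMGA/EGFP array was below the lowest wild-type array (11.04), and the difference was 8.66-fold (-3.11 ± 0.26, limma adjusted p = 0.000127). Bst1, a surface enzyme that makes cyclic ADP-ribose, measured 4.98, 4.84 and 6.32 against 9.75, 9.62 and 8.85, 16.3-fold lower (-4.03 ± 0.40, adjusted p = 0.000788). Its SMGA/EGFP mean intensity of 29.9 was near the added constant of 16, so that fold depends on the constant, and its other probe set, below the filter on level, was at -3.99 ± 0.55. The mean level of the passing probe set lay just above the filter, so that it entered 5 of the 12 fits that left out 1 array, and it passed in those 5. Bst1 and Fgfbp1 lie close together on chromosome 5, with Cd38 as the 1 protein-coding gene between them. Of other genes next to them, Prom1 (prominin) was at 0.81 ± 0.29 (adjusted p = 0.462) and Fbxl5 at -0.25 ± 0.13. Over all passing genes, and leaving out passing genes themselves, 44 of 77 tested genes within 5 places on the chromosome were below 0 and their median was -0.05. That is close to all probe sets tested, of which 53.9% were below 0, with a median of -0.02.

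Dmkn, dermokine, a secreted protein of epithelia, measured 10.85, 10.17 and 10.12 against 12.49, 12.66 and 12.26, 4.26-fold lower (-2.09 ± 0.32, limma adjusted p = 0.0208). Dpp4, a surface peptidase and marker of some fibroblasts, measured 7.51, 7.15 and 8.0 against 9.92, 9.91 and 9.04, 4.21-fold lower (-2.07 ± 0.30, adjusted p = 0.0169). Its other probe sets, below the filter on level, were at 1.02 ± 0.60, -0.30 ± 0.67 and -0.85 ± 0.63. Smpd3, a neutral sphingomyelinase, measured 8.01, 8.77 and 8.31 against 10.39, 10.44 and 9.94, 3.71-fold lower (-1.89 ± 0.21, adjusted p = 0.002). On the passing probe sets, none of these genes overlapped between the lines. Smpd3 and Fgfbp1, like Atp6ap2, passed in all 12 fits that left out 1 array. Dmkn did not pass in 5 of those 12 fits, without SMGA/EGFP 2 or 3 or any SMAA/EYFP array (adjusted p up to 0.166), and Dpp4 in 4, without SMGA/EGFP 1 or 2 or SMAA/EYFP 1 or 2 (up to 0.143).

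**Figure D2:**
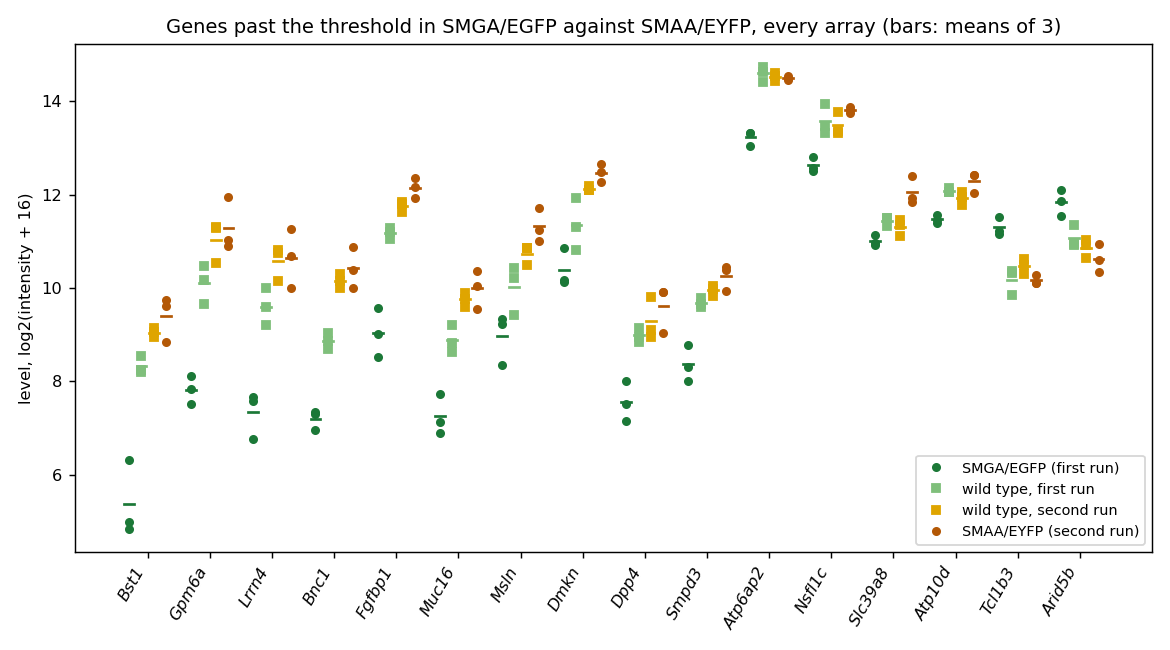
Level of each of the 16 passing genes, log2(intensity + 16), on every array; bars are means of 3. In the 14 genes lower in SMGA/EGFP its arrays lie below all SMAA/EYFP arrays, and in 10 of these the mean of second-run wild type is above that of first-run wild type.

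Promoter windows of Acta2 and of 3 of the genes that differed most are shown because smooth muscle actin promoters use short motifs, and the same motif letters are found near the start of genes of other cells. The windows run from 250 bases before to 50 bases after the annotated start (RefSeq, GRCm38.p6), 5′ to 3′ on the gene's strand: Acta2 at chr19:34255324-34255623 (minus strand), Fgfbp1 at chr5:43981750-43982049 (minus), Lrrn4 at chr2:132880813-132881112 (minus) and Gpm6a at chr8:54779184-54779483 (plus). Capitals mark CATTCC, the MCAT element that TEAD factors bind, here read as GGAATG on the opposite strand, or, in Fgfbp1, the core box TATAAA near which polymerase II initiates.
Acta2: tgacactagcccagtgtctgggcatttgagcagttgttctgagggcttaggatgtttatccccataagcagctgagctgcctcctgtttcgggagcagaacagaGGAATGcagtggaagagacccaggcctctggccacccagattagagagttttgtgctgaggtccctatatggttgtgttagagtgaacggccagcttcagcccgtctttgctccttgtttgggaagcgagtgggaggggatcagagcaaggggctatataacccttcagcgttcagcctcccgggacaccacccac
Fgfbp1: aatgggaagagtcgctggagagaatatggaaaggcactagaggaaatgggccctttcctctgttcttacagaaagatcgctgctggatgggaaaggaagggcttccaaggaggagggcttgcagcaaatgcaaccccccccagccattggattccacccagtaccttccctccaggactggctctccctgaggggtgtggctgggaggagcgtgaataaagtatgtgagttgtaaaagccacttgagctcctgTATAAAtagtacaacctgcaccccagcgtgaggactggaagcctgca
Lrrn4: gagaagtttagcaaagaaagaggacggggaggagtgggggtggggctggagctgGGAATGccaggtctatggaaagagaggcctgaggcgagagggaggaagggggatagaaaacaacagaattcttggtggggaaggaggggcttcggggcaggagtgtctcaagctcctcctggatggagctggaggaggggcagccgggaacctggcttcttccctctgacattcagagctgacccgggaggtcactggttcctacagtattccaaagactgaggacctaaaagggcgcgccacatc
Gpm6a: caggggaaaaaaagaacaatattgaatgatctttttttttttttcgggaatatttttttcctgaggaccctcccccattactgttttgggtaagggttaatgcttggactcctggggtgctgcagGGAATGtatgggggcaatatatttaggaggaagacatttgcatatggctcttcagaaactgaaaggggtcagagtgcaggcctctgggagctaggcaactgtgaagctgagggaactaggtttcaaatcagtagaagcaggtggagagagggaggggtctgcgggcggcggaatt
Both strands were searched for each motif, which do not overlap each other in these windows. CATTCC was found in 4817 of all 32851 windows (14.7%) and TATAAA in 4473 (13.6%). Of the 16 passing genes, 12 matched an entry. Some had several windows, and of the 16 windows of these 12 genes, 4 held CATTCC and 4 held TATAAA. The TATAAA of Fgfbp1 begins within its first transcribed bases as annotated. A match of letters is a description and no binding was measured here.

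A further 4 genes that were lower in SMGA/EGFP had smaller differences at higher levels. Atp6ap2, which binds prorenin and assists the vacuolar proton pump, had the smallest p of all probe sets. Its probe set measured 13.04, 13.32 and 13.32 in SMGA/EGFP and 14.50, 14.46 and 14.53 in SMAA/EYFP, 2.41-fold lower (-1.27 ± 0.09, limma adjusted p = 6.05e-05). Wild type of both runs lay with SMAA/EYFP, at 14.42 to 14.73. The other 2 probe sets of Atp6ap2 were at 0.00 in both cases (SE 0.09 each), and the names of the one that passed and of 1 of the others mark them as open to matching further transcripts. The difference is therefore one of a probe set and not of the gene's whole signal.

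Nsfl1c, a cofactor of the p97 ATPase, measured 12.50, 12.57 and 12.81 against 13.87, 13.74 and 13.80, 2.26-fold lower (-1.18 ± 0.15, limma adjusted p = 0.00638). Slc39a8, a zinc and manganese importer, measured 11.14, 10.93 and 10.96 against 11.83, 12.40 and 11.92, 2.06-fold lower (-1.04 ± 0.16, adjusted p = 0.019). Atp10d, a phospholipid flippase, measured 11.40, 11.46 and 11.56 against 12.04, 12.41 and 12.41, 1.76-fold lower (-0.81 ± 0.13, adjusted p = 0.0285). In Slc39a8 the SMAA/EYFP arrays were the ones that stood apart, above wild type of both runs (11.11 to 11.50), whereas in Nsfl1c and Atp10d the SMGA/EGFP arrays lay below every wild-type array. Of 12 fits that each left out 1 array, Nsfl1c passed in 10, Slc39a8 in 8 and Atp10d in 4.

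Arid5b and Tcl1b3 passed as higher in SMGA/EGFP with all 12 arrays in the fit. With only the 6 arrays of the lines, 10 probe sets passed as higher, and Arid5b was not among them (limma adjusted p = 0.0926). Arid5b, a DNA-binding cofactor of a histone demethylase, measured 12.09, 11.87 and 11.53 in SMGA/EGFP and 10.35, 10.60 and 10.94 in SMAA/EYFP, 2.29-fold higher (1.19 ± 0.20, limma adjusted p = 0.0375). Its other tested probe sets were at 0.84 ± 0.17 and 0.60 ± 0.25 and did not pass, and 2 dim ones were at 0.21 and 0.14. Tcl1b3, of the Tcl1 family of early embryo genes, measured 11.52, 11.16 and 11.21 against 10.11, 10.28 and 10.10, 2.19-fold higher (1.13 ± 0.18, adjusted p = 0.0285). In both genes all SMGA/EGFP arrays were above all other arrays of the study. The name of the Tcl1b3 probe set also marks it as open to other transcripts. Each of the pair passed in 4 of 12 fits that left out 1 array, and with arrays centred on their median neither passed (adjusted p = 0.0709 for each).

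The genes of smallest p that did not pass were Pnisr, Cgas, Vnn1 and Slpi. Slpi, a secreted protease inhibitor of mucosa, was at -2.05 ± 0.37 (limma adjusted p = 0.0809). It passed in 5 other settings: centred arrays (0.0412), array weights (0.0154), only the 6 arrays of the lines (0.0240), and without wild type 2 (0.0460) or wild type 6 (0.0340). Vnn1, a pantetheinase, was at -1.11 ± 0.20 (adjusted p = 0.0754), and Cgas, the sensor of cytosolic DNA, at -1.05 ± 0.19 (adjusted p = 0.0717). The other tested probe set of Cgas was at -0.12 ± 0.32, with overlap between the lines. Pnisr, a nuclear protein with a serine and arginine rich domain, was at -0.68 ± 0.12 (adjusted p = 0.0592), while its 6 other probe sets lay between -0.03 and 0.44. Pnisr passed in 3 other settings (0.0222 to 0.0485), Cgas in 2 (0.0301 and 0.0488) and Vnn1 in 1 (0.0426, without SMAA/EYFP 3).

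Set against the wild-type arrays of its own run, each line gave a different part of these differences. In SMGA/EGFP, 10 probe sets passed against wild type 1 to 3 (0.0444%), and in SMAA/EYFP 0 passed against wild type 4 to 6 (0.00%), by limma in either case; 673 (2.99%) and 988 (4.39%) had an unadjusted p under 0.05. Fgfbp1 was at -2.14 ± 0.21 (adjusted p = 0.00184) in SMGA/EGFP and 0.39 ± 0.21 in SMAA/EYFP. Gpm6a was at -2.27 ± 0.30 (adjusted p = 0.0197) and 0.25 ± 0.30, Lrrn4 at -2.26 ± 0.34 (0.0345) and 0.08 ± 0.34, and Bnc1 at -1.67 ± 0.22 (0.0197) and 0.27 ± 0.22. Muc16 (-1.63 ± 0.26, adjusted p = 0.0554), Msln (-1.05 ± 0.30, 1.00) and the second probe set of Gpm6a (-2.20 ± 0.36, 0.0572) did not pass in SMGA/EGFP against first-run wild type. Bst1 was at -2.95 ± 0.36 (adjusted p = 0.0132) and 0.37 ± 0.36, and Smpd3 at -1.32 ± 0.20 (0.0424) and 0.31 ± 0.20. Atp6ap2 was at -1.37 ± 0.10 and -0.03 ± 0.10, and Tcl1b3 at 1.12 ± 0.17 (0.0345) and -0.31 ± 0.17. In these genes the difference from wild type of the own run was larger in SMGA/EGFP than in SMAA/EYFP. The direct difference between the lines also holds the shift of wild type between the runs. That shift was -1.28 for Bnc1 and -0.71 for Msln, whose direct differences were -3.22 and -2.35. Slc39a8 ran the other way, at -0.43 ± 0.16 in SMGA/EGFP and 0.75 ± 0.16 in SMAA/EYFP, neither past the threshold.

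**Figure D3:**
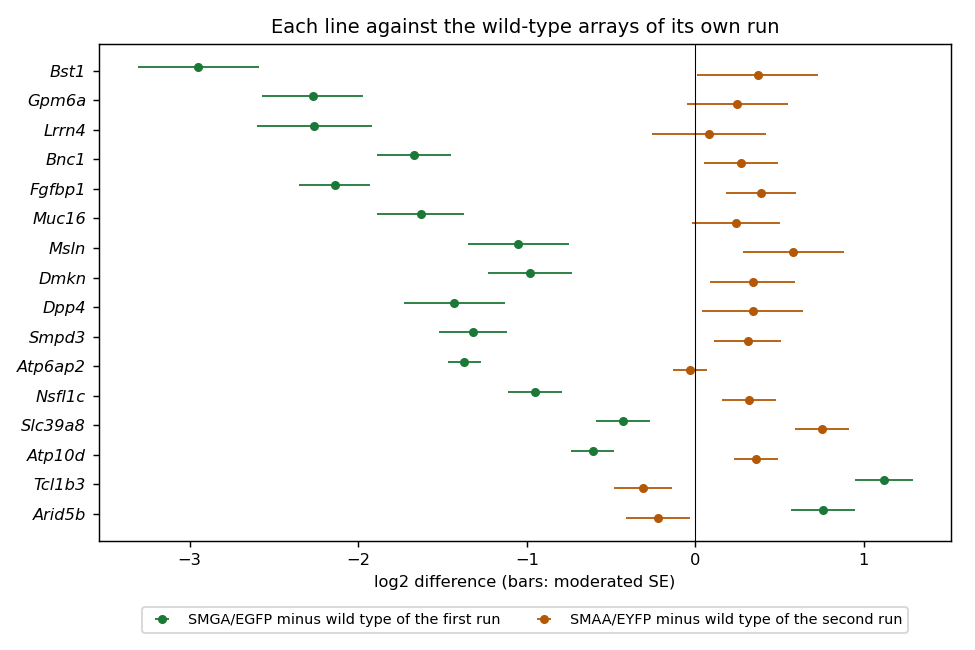
Difference of each line from the wild-type arrays of its own run of record numbers, log2, with moderated standard errors. SMGA/EGFP points of the lower genes lie between -2.95 (Bst1) and -0.43 (Slc39a8), and SMAA/EYFP points of all 16 genes between -0.31 (Tcl1b3) and 0.75 (Slc39a8).

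Wild type itself differed between the runs in the same direction for the mesothelial genes. First-run minus second-run wild type was -1.28 for Bnc1, -0.98 for Lrrn4, -0.94 for Gpm6a, -0.87 for Muc16 and -0.71 for Msln, with -0.77 for Dmkn, -0.71 for Bst1 and -0.58 for Fgfbp1. It was near 0 for Atp6ap2 (0.07) and Nsfl1c (0.09). With the run as a term, which takes that shift out, 2 probe sets passed (0.00888%): Atp6ap2 at -1.34 ± 0.14 (limma adjusted p = 0.00463) and Fgfbp1 at -2.53 ± 0.30 (adjusted p = 0.0140). Under that fit 609 had an unadjusted p under 0.05 (2.70%), the mesothelium list had a median of -0.33 with 12 of 13 genes lower, and Gpm6a, Lrrn4, Bnc1, Muc16 and Msln were at -2.52, -2.35, -1.94, -1.86 and -1.64 (adjusted p = 0.168 to 1.00). The same term without wild type 4 left Atp6ap2 as the 1 call, with Fgfbp1 at -2.57 (adjusted p = 0.056).

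Members of the nerve lists mostly had higher values in SMGA/EGFP, and first-run wild type was also above second-run wild type. Of 18 tested genes of neurons and Schwann cells, 15 were higher, with a median of 1.12, 0 passed, 0 had an unadjusted p under 0.05 and 1 was higher without overlap (against 6.48% of all). Nefm, the medium neurofilament, measured 12.69, 12.86 and 12.40 in SMGA/EGFP and 9.94, 11.02 and 12.28 in SMAA/EYFP (1.57 ± 0.76). SMAA/EYFP 3 lay close to the SMGA/EGFP arrays and SMAA/EYFP 1 far below. Chrna3, a ganglionic nicotinic receptor subunit, was at 1.12 ± 0.69 and Gap43, of growing axons, at 1.21 ± 0.78, while Sox10, the glial regulator, was at -0.47 ± 0.22. First-run wild type exceeded second-run wild type by a median of 1.93 over the list, although not every array sided with its run (list scores of -0.35 for wild type 3 in the first and 0.80 for SMAA/EYFP 3 in the second), and with the run as a term the median was -0.77, with 18 of 18 genes lower. The median was 0.60 without SMAA/EYFP 1 and 1.74 without SMAA/EYFP 3. Of 10 genes of nerve growth factor and Ret signalling, 9 were higher, 3 of them at an unadjusted p under 0.05 (against 4.19%), with a median of 0.22 and 0.02 with the run as a term. The receptors Gfra1, Ntrk2 and Ntrk3 and the ligand Bdnf were at 1.05 ± 0.40, 0.89 ± 0.39, 1.09 ± 0.48 and 1.17 ± 0.63, and at 0.01, -0.12, 0.02 and -0.01 with that term. Whether nerve content bears on the other differences was not tested.

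**Figure D4:**
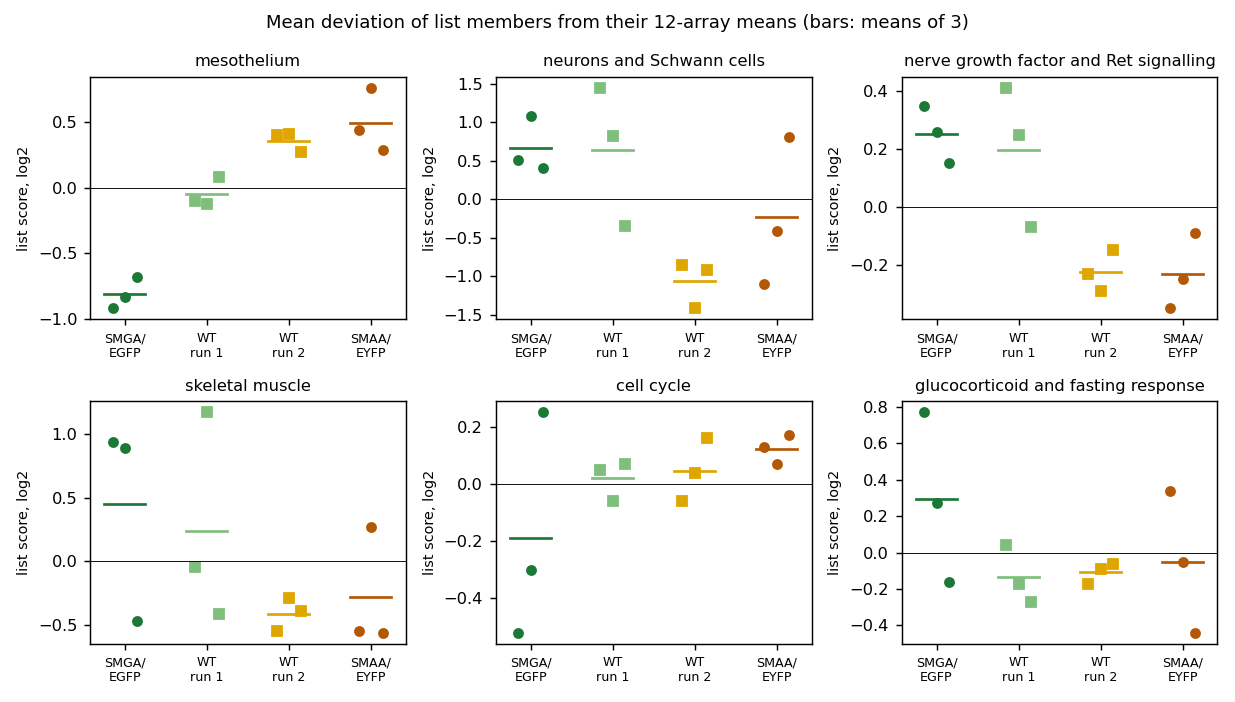
List score (mean log2 deviation of a list's tested members from their means over the 12 arrays) on every array for 6 lists; bars are means of 3. Mesothelium scores run from -0.92 to -0.68 in SMGA/EGFP and from 0.29 to 0.76 in SMAA/EYFP, while the neuron scores of SMAA/EYFP spread from -1.10 to 0.80.

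Of 28 cell cycle genes, 27 had a level below that of SMAA/EYFP, where 53.9% of all probe sets were below 0. With array weights, which give deviating arrays less say, 14 were higher and 14 lower, with a median of -0.01. None of the 28 passed, 8 had an unadjusted p under 0.05 (against 5.12%), 4 did not overlap (against 8.06%), and the median was -0.27. Cdc6, a loader of the replicative helicase, was at -1.24 ± 0.32 (limma adjusted p = 0.329), the helicase subunits Mcm3 and Mcm5 at -0.66 ± 0.23 and -0.57 ± 0.23, and Rrm2, of ribonucleotide reductase, at -0.48 ± 0.20. The arrays of SMGA/EGFP did not act alike: list scores were -0.52, -0.30 and 0.25, against 0.13, 0.07 and 0.17 in SMAA/EYFP. The median was -0.14 when SMGA/EGFP 1 was left out, -0.10 when SMGA/EGFP 2 was, and -0.52 when SMGA/EGFP 3 was. The run as a term gave -0.14, with 21 of 28 lower.

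Of 19 genes of the glucocorticoid and fasting response, 17 were higher in SMGA/EGFP (against 46.1% of all probe sets above 0), with a median of 0.29, 0 passing and 3 at an unadjusted p under 0.05 (against 4.19%). Per1, a clock gene induced by glucocorticoids, was at 0.83 ± 0.27, Sgk1, a kinase they induce, at 0.89 ± 0.31 and Irs2, an insulin receptor substrate, at 0.77 ± 0.32. Angptl4, an inhibitor of lipoprotein lipase, ran the other way at -1.16 ± 0.33. Scores were 0.77, 0.27 and -0.16 in SMGA/EGFP and 0.34, -0.05 and -0.44 in SMAA/EYFP, which overlap, and without SMGA/EGFP 1 the median was 0.08. Skeletal muscle genes had a median of 0.16 and were uneven: Myh3 at 3.36 ± 1.65, Mylpf at 2.55 ± 1.54, Myl1 at 2.15 ± 1.62 and Atp2a1 at 1.58 ± 0.81. SMGA/EGFP 1 and 2 were high (scores 0.94 and 0.89) and SMGA/EGFP 3 low (-0.47), and the median was -0.06 without SMGA/EGFP 1.

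Among the other cell types, medians lay close to that of all probe sets and 1 gene passed, Dpp4 of the fibroblast list. Urothelium had 21 of 29 genes lower, with a median of -0.10 (0.00 without SMGA/EGFP 1, with 16 lower, and -0.20 with the run as a term, with 27 lower) and Krt20, a keratin of umbrella cells, at -0.46 ± 0.27. Fibroblasts and extracellular matrix had 16 of 27 higher, with a median of 0.01 (-0.06 without SMGA/EGFP 1 and 0.12 with the run as a term) and Pdgfra, a growth factor receptor, at 0.45 ± 0.13. Endothelium had 10 genes higher and 10 lower, with Sox18 at -0.39 ± 0.17 and Eng (endoglin) at 0.40 ± 0.21. That split was 4 and 16 without SMGA/EGFP 1 or with arrays centred on their median, 13 and 7 without SMGA/EGFP 2, and 14 and 6 with the run as a term. Pericytes had 6 higher and 4 lower, with Pdgfrb at 0.36 ± 0.19 and Kcnj8 at -0.34 ± 0.17. Of 18 leukocyte genes, 14 were lower; the median was -0.14 (0.10 with the run as a term and 0.06 without SMGA/EGFP 3), with Cx3cr1, a chemokine receptor of macrophages, at -1.06 ± 0.43 and Ctss at -0.37 ± 0.16. Of 4 mast cell genes, 2 were lower, the proteases Cma1 (-0.56 ± 0.19) and Cpa3 (-0.46 ± 0.18), both without overlap (against 8.06%). The other 2 were higher, Gata2 at 0.25 ± 0.15 without overlap and Kit at 0.22 ± 0.17. Of smooth muscle receptors and channels, 9 of 13 were lower, with a median of -0.08 (0.03 with the run as a term), 3 were lower at an unadjusted p under 0.05 (against 5.12%) and 4 were lower without overlap (against 8.06%), among them Atp2b4, a calcium pump, at -0.95 ± 0.30 and Cacna1c, the L-type calcium channel, at -0.49 ± 0.18. Smooth muscle regulators had 7 higher and 7 lower (11 and 3 with the run as a term), with Mef2c at 0.37 ± 0.19 and Elk1 at -0.47 ± 0.25. Few genes were tested for erythroid cells (Car2 -0.12 ± 0.20, Alas2 0.20 ± 0.48), adipocytes (Fabp4 -0.14 ± 0.10, Cd36 -0.26 ± 0.32) and the prostate and Wolffian duct (Hoxd13 0.36 ± 0.23).

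Lists of cell state had no passing member either. Of 12 genes of the list named cytosolic heat shock, 9 were lower, and the median was -0.11. Hspd1, whose protein is mitochondrial, was at -0.30 ± 0.10 and Hspa1b at -0.34 ± 0.13. Interferon response genes were lower in 8 of 11, with a median of -0.20 (0.11 with the run as a term), Bst2 at -0.76 ± 0.27 and Usp18 at -0.78 ± 0.30. Circadian clock genes had a median of 0.16 with Arntl at 0.37 ± 0.14, and imprinted genes one of 0.12 (0.02 with the run as a term, 0.02 without SMGA/EGFP 1 and 0.00 with centred arrays) with Cdkn1c, a cell cycle inhibitor, at 0.56 ± 0.22 and Impact at 0.33 ± 0.15. Immediate early genes had a median of 0.06 (-0.16 with that term), with Klf2 at -0.81 ± 0.32 and Fos at -0.85 ± 0.37. Of 23 genes of Hedgehog, Wnt and BMP signalling, 4 were higher (against 4.19% of all) and 3 lower (against 5.12%) at an unadjusted p under 0.05. The higher ones were the Wnt inhibitors Sfrp1 and Sfrp2 at 0.84 ± 0.33 and 0.65 ± 0.27, the ligand Bmp2 at 0.49 ± 0.21 and Axin2, a Wnt target, at 0.45 ± 0.19. The lower ones were the BMP targets Id1 and Smad6 at -0.56 ± 0.19 and -0.53 ± 0.21 and the Hedgehog receptor Ptch1 at -0.26 ± 0.12. Hox genes had a median of 0.05, with Hoxc10 at 0.75 ± 0.37 and Hoxd9 at 0.28 ± 0.15. Medians were 0.04 for endoplasmic reticulum stress (Dnajb11 0.29 ± 0.14, Manf -0.24 ± 0.12), 0.01 for oxidative phosphorylation (Ndufs1 -0.14 ± 0.08, Ndufa9 -0.11 ± 0.08) and 0.10 for hypoxia and glycolysis (Pgam1 0.17 ± 0.13, Bnip3 0.56 ± 0.45). The hypoxia median was -0.11 without SMGA/EGFP 1, with 4 of 18 genes higher, and 0.25 without SMGA/EGFP 2.

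**Figure D5:**
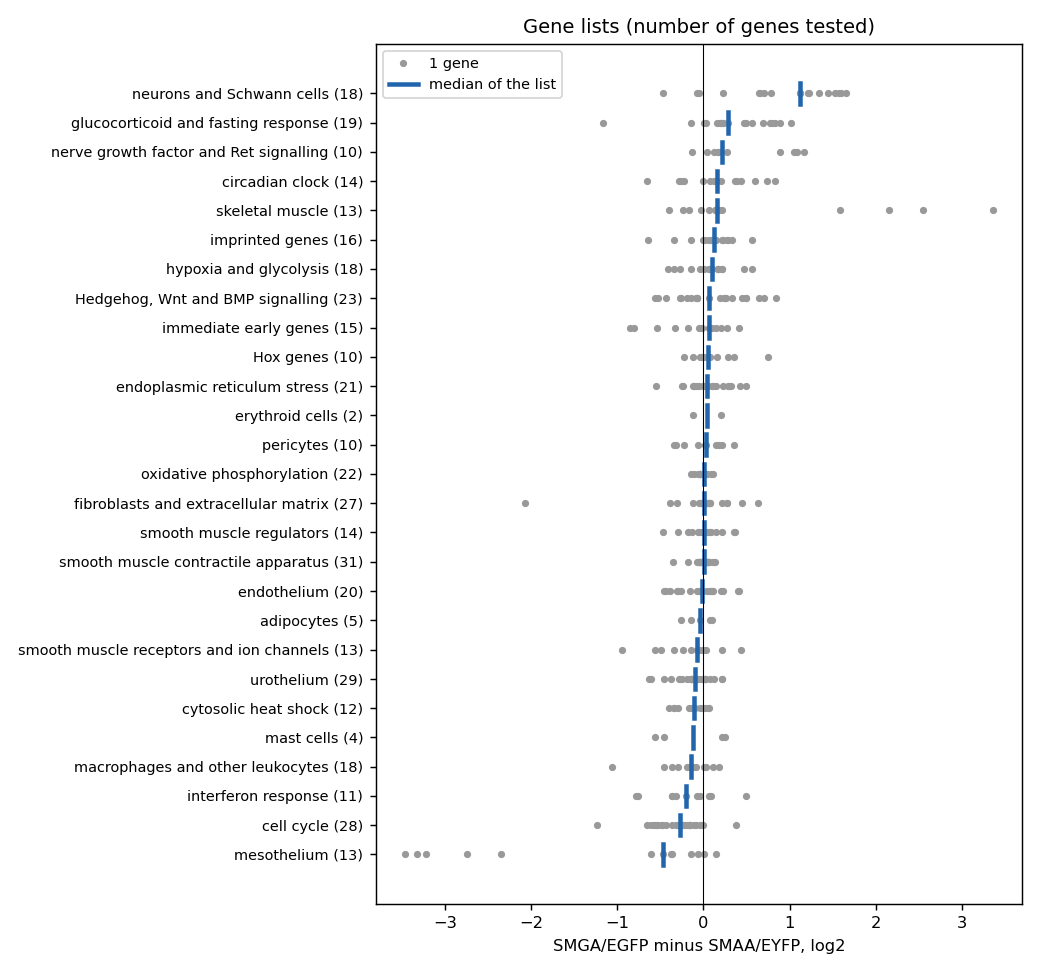
Difference between the lines (SMGA/EGFP minus SMAA/EYFP, log2) for every tested gene of 27 lists, 1 point per gene, with the list's median as a bar and the number of genes in brackets. Medians run from -0.47 for mesothelium to 1.12 for neurons and Schwann cells, and most others lie within 0.20 of 0.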

How the data were processed

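Total RNA (RNeasy) went through 1 round of amplification and biotin labelling, per the labels' protocols. The values deposited by the authors are linear intensity per probe set of a 1-colour Affymetrix mouse array, made with GCOS per the submitters' processing notes, version not given in the sources used here. A trimmed mean of 1499.6 to 1499.8 on all 12 arrays goes with scaling by 1 factor per array, while median intensity was 229.39 to 305.94 and 8.35% to 10.6% of values lay below 16. The number of arrays limits the precision.

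From the deposited intensity, log2(intensity + 16) was computed and quantile-normalized. Of 45101 probe sets, 64 controls were left out and tests covered the 22518 with a mean above the median of all means (log2 8.02). Tests were made in R 4.3.3 by limma 3.58.1 (lmFit, eBayes with trend, two-sided, Benjamini-Hochberg over all tested, threshold 0.05). The fit used all 12 arrays, with the spread estimated over the 3 groups together. Wild type entered as 1 group across both runs, so a shift between the runs adds to that spread. For Bnc1 the wild-type SD was 0.72 across the runs, 0.17 in the first and 0.14 in the second. Scripts were tested on simulated data. SE is limma's moderated error.

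Symbols came from GEO's platform annotation (34945 probe sets with 1 symbol, 932 with several, 9160 not listed; 0 changed on update through RefSeq). In lists, each gene was read from its brightest probe set by mean level. Members and lists were chosen with earlier results of these data known, and the motifs and the look at neighbouring genes after values were seen. Named genes were those that passed without overlap, those of smallest p up to 20 genes in all, Acta2 and Actg2, and members of smallest p per list. The rule allowed up to 4 per list. The text gives 4 for 6 lists and up to 2 for most others, a limit set after values were seen. Further mesothelium members are given for the same reason. For Hedgehog, Wnt and BMP signalling it gives every tested member with an unadjusted p under 0.05, which goes beyond the rule.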

Additional observations from a re-analysis of the deposited data

Results flagged for a closer look

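Of 54 groups of values checked, each over the wild-type arrays of both runs, 6 held a sample far from the rest of its group. Chance gives this in about 1 of 20 groups. Arrays of the reporter lines were not checked in this way. Dpp4 on wild type 5 was at 9.81, above the other wild-type arrays, and the skeletal muscle score of wild type 2 was 1.17. Wild type 4 accounts for the other 4: Xist at 29600 against 80.1 to 250 on the other arrays, and the Y-linked genes Eif2s3y at 26.7, Kdm5d at 28.0 and Uty at 48.6, near background. Its label says male, and none of the 6 arrays compared shares that pattern.

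The effects of the lines, each against the wild type of its own run, differed by a test of the difference in Fgfbp1 (-2.53, limma adjusted p = 0.0140) and in Atp6ap2 (-1.34, adjusted p = 0.00463). That test is the fit with the run as a term described above. Without wild type 4 it gave -2.57 for Fgfbp1 (limma adjusted p = 0.056), which did not pass. In Fgfbp1, SMGA/EGFP was lower than its wild type in 3 of 3 arrays. In Atp6ap2, 1 of 3 probe sets carried the difference. No explanation was tested for either.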

How the results depend on the processing

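The 18 calls became 10 with the filter at the 75th percentile, 2 with the record run as a term, 1 with that term and without wild type 4, and 4 to 22 with 1 array left out, at 4 without SMAA/EYFP 2 and 9 without SMGA/EGFP 2. Other settings gave 13 (no trend) to 26 (array weights). Atp6ap2 passed in every fit that held its probe set, Fgfbp1 in all but the run term without wild type 4. Direction turned in genes that had not passed. With arrays centred on their median, Vcl was at -0.02, Acta2 at -0.12 and Actg2 at -0.12. With the run term, and with it but without wild type 4, values were 0.20 and 0.33 for Ldb3, -0.44 and -0.45 for Nefm, -0.77 and -0.79 for Chrna3, -0.77 and -0.69 for Gap43, -0.16 and -0.16 for Mylpf, -1.57 and -1.65 for Myl1, 0.13 and 0.16 for Cd36, -0.05 and -0.12 for Hoxd13, 0.05 and 0.03 for Ndufa9, and -0.12 and -0.12 for Ntrk2. With the run term alone Irs2 was at -0.09 and Bdnf at -0.01. Without wild type 4 as well, Kcnj8 was at 0.04, Gfra1 at -0.22 and Ntrk3 at -0.07. Without SMGA/EGFP 1, Car2 was at 0.00 and Alas2 at -0.33, and without SMGA/EGFP 3 Cd36 was at 0.04; leaving out 1 array gave ranges of -0.26 to 0.00 for Car2, -0.33 to 0.56 for Alas2 and -0.55 to 0.04 for Cd36. The cause was not tested beyond what each setting removes. No paired analysis was possible because replicate numbers follow record order and pair no samples. Levels near background, as for Bst1, limit its fold.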
